A study of Mus musculus with 8 samples.

Results

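The genes described here encode the MHC class II molecules of the mouse and the proteins that assemble and load them. The 10 members were chosen by gene symbol, H2-Aa, H2-Ab1, H2-Eb1, Cd74, H2-DMa, H2-DMb1, H2-DMb2, Ciita, Ctss and Ifi30, and all 10 were found among the 21434 genes of the table. All 10 also passed the filter on low counts, which left 12820 genes for testing. RNA was sequenced from pancreatic tissue of 8 mice of the C57BL/6N-Bach2tm1b(EUCOMM)Wtsi/leg strain, untreated and 18 weeks old. The Bach2KO group held 4 mice with a constitutive knockout of Bach2 in the whole body, and the Bach2WT group held 4 wild-type mice. In each group mice 1 and 2 were female and mice 3 and 4 were male. Bach2 is a transcriptional repressor of lymphocytes, and the comparison asks which genes of the pancreas differ when it is missing.

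MHC class II molecules are heterodimers of an alpha and a beta chain that carry peptides of ingested proteins to the surface of antigen-presenting cells, chiefly dendritic cells, macrophages and B cells, where CD4+ T cells read them. The invariant chain Cd74 holds newly made dimers in shape and guides them to endolysosomes, where cathepsin S trims it and the H2-DM dimer exchanges its last fragment for a peptide. Ciita is the coactivator that switches these genes on together, and it acts through the S, X and Y boxes shared by their promoters. In C57BL/6 mice no complete I-E molecule is made, because the alpha chain gene H2-Ea is defective, although its partner H2-Eb1 is transcribed.

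The promoter sequences show which members carry letters of the boxes through which Ciita acts. RefSeq promoters (assembly GRCm38.p6, 250 bases before to 50 after the start) were matched by symbol for 7 of the 10 members, in 8 windows, since H2-DMa had 2. The stretches below run from base -130 to base -21 before the start of transcription, each on the strand of its gene, and capitals mark TGATG, letters of the X box side, and ATTGG, the Y box, or their reverse complements CATCA and CCAAT.
H2-Aa, chr17:34287844-34287953, minus strand: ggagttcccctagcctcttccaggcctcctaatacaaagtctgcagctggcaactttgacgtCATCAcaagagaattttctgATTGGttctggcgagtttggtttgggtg
H2-Eb1, chr17:34305737-34305846, plus strand: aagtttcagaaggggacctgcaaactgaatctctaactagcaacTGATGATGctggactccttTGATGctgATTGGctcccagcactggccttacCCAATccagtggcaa
H2-DMb1, chr17:34153061-34153170, plus strand: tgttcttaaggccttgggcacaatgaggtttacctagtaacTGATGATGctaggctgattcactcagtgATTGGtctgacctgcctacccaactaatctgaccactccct
H2-DMb2, chr17:34145119-34145228, plus strand: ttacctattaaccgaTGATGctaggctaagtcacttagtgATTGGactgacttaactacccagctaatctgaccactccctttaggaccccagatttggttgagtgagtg
Ctss, chr3:95526656-95526765, plus strand: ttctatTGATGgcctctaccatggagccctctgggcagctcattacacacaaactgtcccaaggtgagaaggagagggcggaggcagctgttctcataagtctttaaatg
Ifi30, chr8:70766684-70766793, minus strand: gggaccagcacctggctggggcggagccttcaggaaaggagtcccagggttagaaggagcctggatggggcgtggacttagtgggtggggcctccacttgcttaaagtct

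TGATG followed by ATTGG on the gene strand, with 20 to 30 bases between their first letters, stood in the windows of H2-Eb1, H2-DMb1 and H2-DMb2. The first letters lay 25 bases apart in H2-DMb2, 24 and 27 bases apart in H2-Eb1 (2 overlapping TGATG), and 25 and 28 bases apart in H2-DMb1. Of all 32851 RefSeq windows of 300 bases, 0.408% held this arrangement on the gene strand and 0.682% on either strand, whereas TGATG alone was in 39.3% and ATTGG alone in 37.4% on either strand. In H2-Aa the X side letters were in the opposite orientation, at base -68, with ATTGG at base -48. The Ctss window held TGATG at base -124 without ATTGG, and the Ifi30 window held neither. For H2-DMa, 1 window held neither and the other held ATTGG at base -198 and TGATG at base -142, in the reverse order. The letters and their spacing were chosen after these sequences had been seen, a match is not a bound site, and the promoters of H2-Ab1, Cd74 and Ciita were not analysed here.

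The libraries held 72299745 to 172029360 counts. Genes of digestive enzymes took 79.8% to 82.7% of them, so the class II genes were measured in the remainder. Values are given below as CPM, counts per 1000000 counts of the library after TMM normalization, which scales out differences in library composition. Bach2 itself had only 3 to 16 counts in the Bach2KO libraries and 4 to 31 in the Bach2WT libraries, at 0.0915 ± 0.0515 against 0.0943 ± 0.0844 CPM (SD, n = 4, exact permutation p = 0.943, two-sided). At this level it did not pass the filter, and it could not check the labels.

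Per kilobase of transcript (FPKM), the most abundant members in Bach2WT pancreas were Ifi30, at 11.7 ± 2.25, and Cd74, at 10.7 ± 6.55 (SD, n = 4). The chains of the antigen-presenting dimers followed, with H2-Eb1 at 3.73 ± 2.69, H2-Ab1 at 3.31 ± 1.90 and H2-Aa at 1.80 ± 1.11, and the FPKM ranges of neighbouring genes in this order overlapped down to H2-Aa. A gap without overlap separated H2-Aa from Ctss at 0.444, H2-DMb1 at 0.332, H2-DMa at 0.213, H2-DMb2 at 0.114 and Ciita at 0.0118 FPKM, each overlapping the next. In Bach2KO pancreas Cd74 led at 21.8 ± 7.38 FPKM, followed by H2-Eb1 at 8.57, Ifi30 at 7.91, H2-Ab1 at 7.80 and H2-Aa at 4.09. Ifi30 thus stood below Cd74 and H2-Eb1 in mean FPKM in Bach2KO pancreas, although the ranges of H2-Eb1, Ifi30 and H2-Ab1 overlapped. In both groups Ciita, a transcription regulator, was the lowest member, and in Bach2KO its range did not reach that of H2-DMb2.

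Between genotypes, 9 of the 10 members were higher by fold in Bach2KO and Ifi30 was lower. The median log2 fold change of the members was 1.22, against 0.05 over all genes tested. With edgeR's quasi-likelihood test and Benjamini-Hochberg adjustment over all genes, no member passed an adjusted p of 0.05, and of all genes 0.0078% (1 of 12820) did. At an unadjusted p under 0.05, 7 members were higher (H2-Aa, H2-Ab1, H2-Eb1, Cd74, H2-DMa, H2-DMb1 and Ctss), where 3.9% of all genes were, and Ifi30 was lower, where 3.56% were. DESeq2 had 6 members higher at that level, but 3 without Bach2KO mouse 3 and 4 without Bach2KO mouse 4 or without Bach2WT mouse 2. CPM values did not overlap between genotypes for H2-DMb1 and Ctss, both higher in Bach2KO (2.57% of all genes), and for Ifi30, lower in Bach2KO (1.92%). DESeq2 called Ctss and H2-DMb1 higher at an adjusted p under 0.05, with 0.335% of the 15516 genes it adjusted called higher. In whole tissue, more cells of a type and more RNA per cell cannot be told apart.

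**Figure D1:**
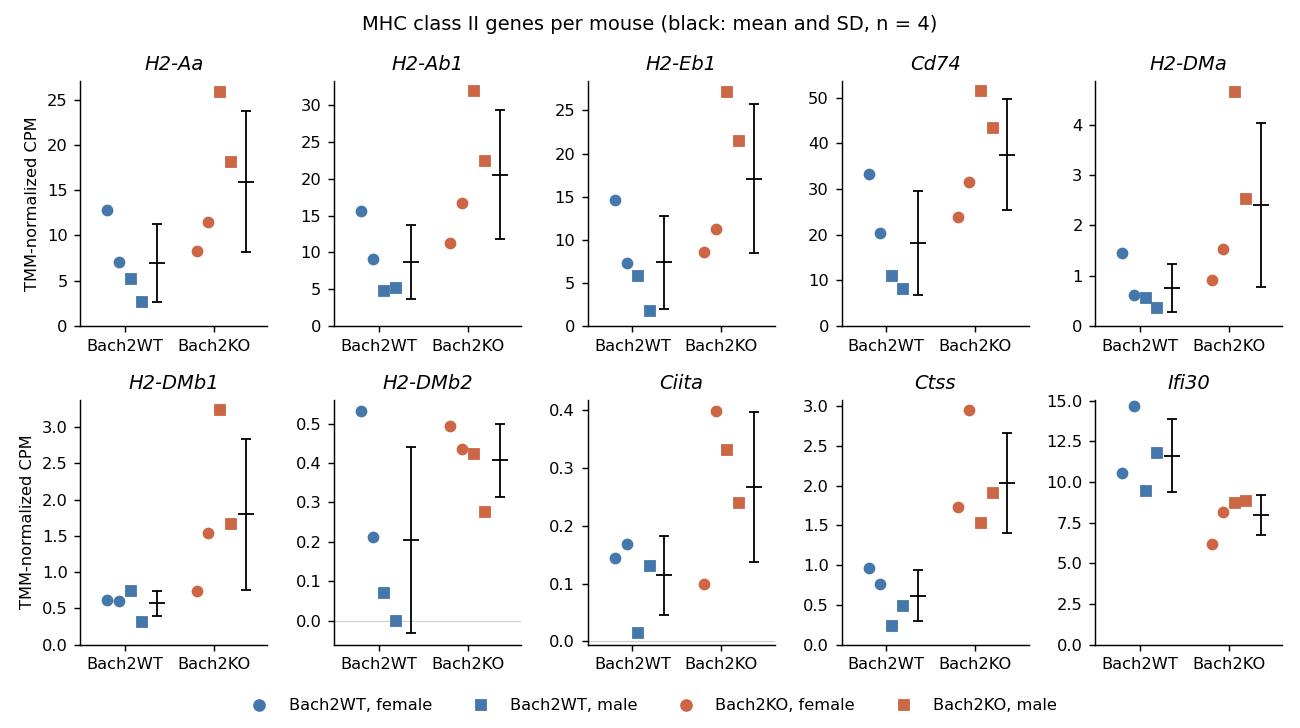
TMM-normalized CPM (y axis, linear) of the 10 members in each mouse, by genotype (x axis; circles, females; squares, males), with the mean and SD of the 4 mice in black. For H2-Aa, H2-Ab1, H2-Eb1 and Cd74 the males of Bach2KO are the highest points and the males of Bach2WT the lowest, whereas Ctss is separated by genotype in both sexes and Ifi30 lies lower in Bach2KO.

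H2-Aa, the alpha chain of the I-A molecule (chr17:34501718-34506797, minus strand, GRCm39), had 8.30, 11.5, 25.9 and 18.1 CPM in Bach2KO mice 1 to 4 and 12.8, 7.03, 5.16 and 2.71 CPM in Bach2WT mice 1 to 4. The groups overlapped, because Bach2WT mouse 1 exceeded both Bach2KO females, while both Bach2KO males lay above every Bach2WT mouse. The log2 fold change was 1.20 with an SE of 0.42 (edgeR adjusted p = 0.579). H2-Ab1, its beta chain partner (chr17:34476663-34488393), had 11.2, 16.7, 31.8 and 22.4 CPM in Bach2KO and 15.6, 9.12, 4.71 and 5.20 CPM in Bach2WT. Only Bach2KO mouse 1 lay within the Bach2WT range. Its log2 fold change was 1.25 with an SE of 0.38 (edgeR adjusted p = 0.523).

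H2-Eb1, the beta chain of the I-E molecule (chr17:34524841-34535648), had 8.63, 11.2, 27.1 and 21.4 CPM in Bach2KO and 14.6, 7.36, 5.82 and 1.74 CPM in Bach2WT. Again the Bach2KO males were highest, the Bach2WT males lowest, and the females of the groups overlapped. The log2 fold change was 1.21 with an SE of 0.49 (edgeR adjusted p = 0.637). Cd74, the invariant chain (chr18:60936920-60945724), had 23.9, 31.5, 51.4 and 43.4 CPM in Bach2KO and 33.2, 20.5, 10.9 and 8.19 CPM in Bach2WT. It was the most abundant member by CPM in every Bach2KO library, and both Bach2KO females lay below Bach2WT mouse 1. Its log2 fold change was 1.04 with an SE of 0.37 (edgeR adjusted p = 0.593).

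The H2-DM genes encode the dimer that exchanges the invariant chain fragment for peptide. H2-DMa, its alpha chain (chr17:34338515-34358075), had 0.920, 1.52, 4.65 and 2.52 CPM in Bach2KO and 1.44, 0.625, 0.564 and 0.360 CPM in Bach2WT. Bach2KO mouse 1 lay below Bach2WT mouse 1, and the other Bach2KO mice lay above all Bach2WT mice. The log2 fold change was 1.68 with an SE of 0.51 (edgeR adjusted p = 0.523). On the opposite strand 3094 bases of H2-DMa overlap Brd2, whose log2 fold change was 0.16 with an SE of 0.24, and whether reads were counted by strand is not given in the sources used here.

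H2-DMb1, a beta chain of the same dimer (chr17:34372046-34379204), had 0.741, 1.55, 3.24 and 1.66 CPM in Bach2KO and 0.611, 0.602, 0.738 and 0.317 CPM in Bach2WT. The groups did not overlap, but the lowest Bach2KO and the highest Bach2WT mouse, at 120 and 106 counts, were nearly level. The log2 fold change was 1.64 with an SE of 0.42, with an adjusted p of 0.387 by edgeR and 0.0482 by DESeq2. H2-DMb2, its close paralog (chr17:34362281-34370529), had 0.494, 0.435, 0.423 and 0.275 CPM in Bach2KO and 0.533, 0.213, 0.0696 and 0 CPM in Bach2WT, the last being a count of 0, which allows up to 3 counts or 0.0432 CPM. The females overlapped and the males did not, and the log2 fold change of 0.99 carried an SE of 0.87 (edgeR adjusted p = 0.863). Reads of these near-identical genes may have been split between them, so their separate values are uncertain.

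Ciita, the master coactivator (chr16:10297923-10346282), had 16, 33, 25 and 46 counts in Bach2KO and 13, 22, 2 and 9 in Bach2WT. These counts correspond to 0.0988, 0.398, 0.330 and 0.238 CPM against 0.144, 0.168, 0.0139 and 0.130 CPM, and only Bach2KO mouse 1 lay within the Bach2WT range. The log2 fold change was 1.22 with an SE of 0.82 (edgeR adjusted p = 0.796), so a difference was not detectable at this depth. Ciita also overlaps Dexi on the other strand, over 25888 bases.

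Ctss encodes cathepsin S, the endolysosomal protease that trims the invariant chain (chr3:95434097-95463714). It had 1.74, 2.95, 1.53 and 1.91 CPM in Bach2KO and 0.966, 0.762, 0.237 and 0.489 CPM in Bach2WT. Every Bach2KO mouse exceeded every Bach2WT mouse, at means of 2.03 ± 0.629 and 0.614 ± 0.318 CPM (SD, n = 4, exact permutation p = 0.0286, two-sided, the smallest that 4 against 4 can give). Its log2 fold change was 1.73 with an SE of 0.40, with an adjusted p of 0.352 by edgeR and 0.0133 by DESeq2. Over the 26 fits run on both sexes together, Ctss had the highest fold change of the members in 16, H2-DMa in 8 and H2-DMb1 in 2. The DESeq2 call of Ctss was lost without Bach2KO mouse 2 (adjusted p = 0.204), without Bach2KO mouse 4 (0.0521) and without Bach2WT mouse 4 (0.0633). The DESeq2 call of H2-DMb1 was lost without Bach2KO mouse 2 (adjusted p = 0.140) or mouse 4 (0.123), and without Bach2WT mouse 2 (0.117), mouse 3 (0.0672) or mouse 4 (0.148), while without Bach2KO mouse 3 DESeq2 gave neither gene an adjusted p.

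Ifi30, the lysosomal thiol reductase that opens disulfide bonds of proteins to be presented (chr8:71215419-71219307, minus strand), differed in the other direction. It had 6.21, 8.15, 8.70 and 8.85 CPM in Bach2KO and 10.6, 14.7, 9.42 and 11.8 CPM in Bach2WT. All Bach2KO mice lay below all Bach2WT mice, at 7.98 ± 1.21 against 11.6 ± 2.25 CPM (SD, n = 4, exact permutation p = 0.0286, two-sided). The log2 fold change was -0.54 with an SE of 0.18 (edgeR adjusted p = 0.552, DESeq2 adjusted p = 0.275).

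Ratios between members within a library set aside how much class II RNA the library held in all. The FPKM ratio of Cd74 to H2-Ab1 was 3.26, 2.89, 2.47 and 2.96 in Bach2KO and 3.27, 3.43, 3.55 and 2.41 in Bach2WT, over libraries whose Cd74 level spanned 8.19 to 51.4 CPM. The ratio of H2-Aa to H2-Ab1 lay between 0.465 and 0.550 in Bach2KO and between 0.352 and 0.741 in Bach2WT, with a difference in log2 ratio of -0.03 (exact permutation p = 0.857). The ratios of H2-Eb1 and of H2-DMa to H2-Ab1 differed between genotypes by 0.10 and 0.30 on the log2 scale, less than the SDs of the Bach2WT libraries. Of 9 ratios compared, only Ifi30 to Cd74 did not overlap. It was 0.445, 0.443, 0.290 and 0.349 in Bach2KO and 0.545, 1.23, 1.48 and 2.47 in Bach2WT, a log2 difference of -1.73 (exact permutation p = 0.0286, Benjamini-Hochberg adjusted over the 9 ratios 0.257). The ratio of Ctss to Cd74 differed by 0.67 on the log2 scale and overlapped (exact permutation p = 0.200). The other 4 ratios, with -0.12 for Cd74 to H2-Ab1, -0.08 for H2-DMb1 to H2-DMa, -0.29 for H2-DMb2 to H2-DMb1 and 0.22 for Ciita to H2-Ab1, overlapped as well (adjusted exact permutation p = 0.886 for every ratio but Ifi30 to Cd74).

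**Figure D2:**
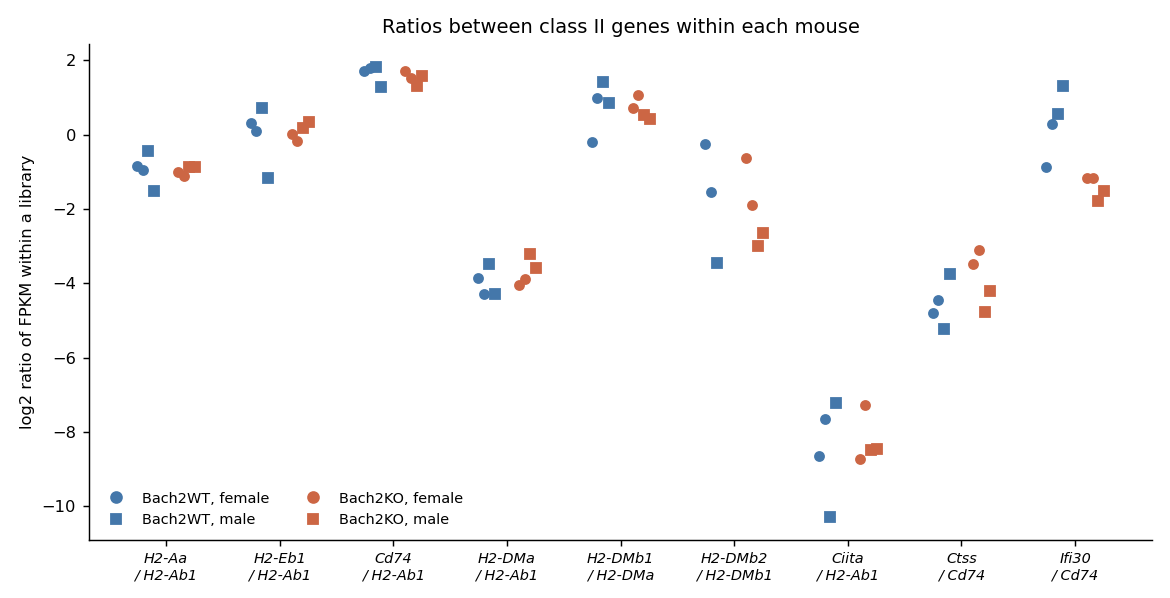
Log2 ratio of FPKM between members within each library (y axis) for the 9 ratios (x axis), with circles for females, squares for males, blue for Bach2WT and orange for Bach2KO (Bach2WT mouse 4 has no H2-DMb2 to H2-DMb1 ratio because H2-DMb2 had a count of 0). Cd74 to H2-Ab1 spans 0.56 log2 units over all libraries, and Ifi30 to Cd74 is the ratio without overlap between genotypes.

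The genotype difference was larger by fold in males than in females for 9 members, and larger in females for Ifi30. DESeq2 called this contrast between the sexes for 4 members and edgeR for none. In males both Bach2KO mice lay above both Bach2WT mice for 9 members, and for Ifi30 both lay below. This order with Bach2KO above held in males for 19.4% of all genes, and with Bach2KO below for 17.4%. In females Bach2KO lay above for H2-DMb1 and Ctss (21.9% of all genes), below for Ifi30 (18.2%), and the other 7 members overlapped. The median difference in mean log2 CPM of the members was 2.37 in males and 0.26 in females, with 2 mice per genotype in each sex.

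For Cd74 the mean was 47.4 CPM in Bach2KO males and 9.56 CPM in Bach2WT males, a 4.96-fold difference, whereas the females had 27.7 and 26.9 CPM. H2-Ab1 was 5.48-fold, H2-Aa 5.59-fold and H2-Eb1 6.42-fold higher in Bach2KO males. In females the log2 differences were 0.07 for Cd74, 0.20 for H2-Ab1, 0.04 for H2-Aa and -0.07 for H2-Eb1. For these genes the females of the groups thus stood at about the same level while the males stood apart. For Ctss the log2 difference was 1.38 in females and 2.27 in males, and for Ifi30 it was -0.80 in females and -0.26 in males.

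The sex by genotype term measured how much the log2 fold change in males exceeded that in females. It was positive for 10 of 10 members with a median of 2.27, against 0.01 over all genes tested. For Ifi30, which was lower in Bach2KO, a positive term means a smaller decrease in males. By edgeR no member passed an adjusted p of 0.05, and 0.0% of genes did (0 of 12820, with 787 at an unadjusted p under 0.05). At an unadjusted p under 0.05 the term was larger in males for H2-Aa, H2-Ab1, H2-Eb1, Cd74 and H2-DMa, 5 of the 10 members, where 3.27% of all genes were. DESeq2 called 4 members, where 0.216% of the 6474 genes it adjusted were called in either direction (14 genes, 9 of them larger in males).

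The term for Cd74 was 2.26 with an SE of 0.40, with an adjusted p of 0.509 by edgeR and 3.71e-05 by DESeq2. For H2-Ab1 it was 2.28 with an SE of 0.43, with an adjusted p of 0.509 by edgeR and 5.26e-04 by DESeq2. H2-Aa and H2-Eb1 had terms of 2.48 and 2.81, with DESeq2 adjusted p values of 1.25e-03 and 1.99e-03 and edgeR adjusted p values of 0.672 and 0.781. These chains and their chaperone therefore passed in DESeq2 and not in edgeR. H2-DMa had a term of 2.69 that neither tool called (DESeq2 adjusted p = 0.0795), and H2-DMb2 and Ciita received no adjusted p from DESeq2. For Ctss and Ifi30 the terms were 0.84 and 0.54, with edgeR adjusted p values of 0.909 and 0.892.

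The DESeq2 calls of the sex by genotype term rested on single libraries for H2-Aa, H2-Ab1 and H2-Eb1 but not for Cd74. Without Bach2KO mouse 1 or without Bach2KO mouse 3, Cd74 alone was called (adjusted p = 0.00905 and 0.00717). H2-Eb1 was also lost without Bach2KO mouse 2 (adjusted p = 0.451) or mouse 4 (0.298) and without Bach2WT mouse 1 (0.456) or mouse 2 (0.285), so that its call was kept only without Bach2WT mouse 3 or mouse 4. Without Bach2WT mouse 4, H2-Aa was not called (adjusted p = 0.0712). The term of Cd74 stayed between 1.87 and 2.57 when any single library was left out, with either tool. Each of these fits left 1 mouse in a combination of sex and genotype, so their p-values rest on little replication.

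**Figure D3:**
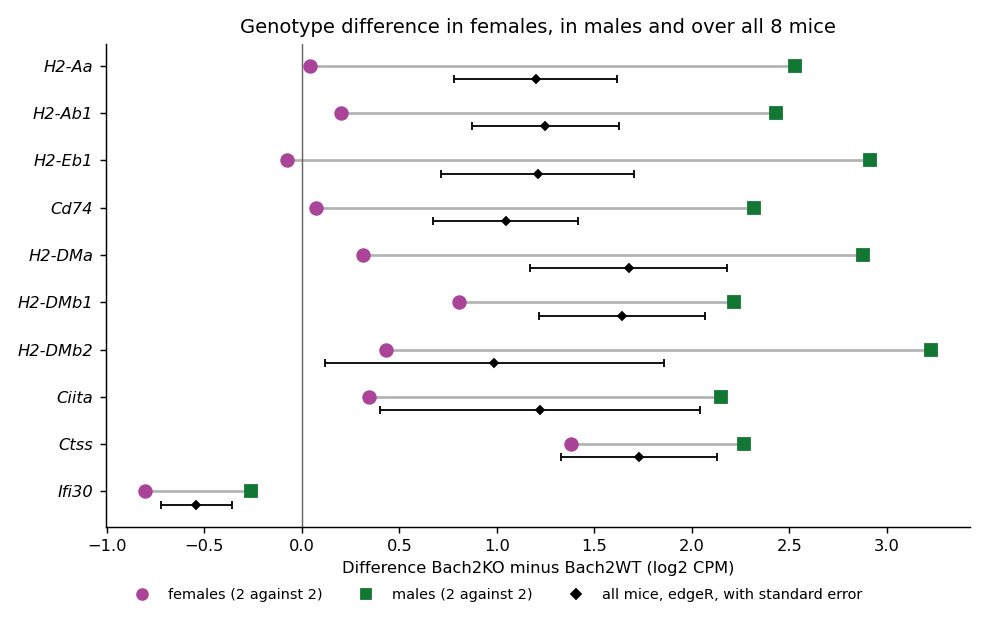
Difference in log2 CPM, Bach2KO minus Bach2WT (x axis), for each member (y axis) in females (circles, 2 against 2 mice) and in males (squares, 2 against 2), with the edgeR log2 fold change over all 8 mice and its standard error below each pair (diamonds). The male point lies to the right of the female point for 10 of 10 members, which for Ifi30 is a smaller decrease in males. The female points of H2-Aa, H2-Eb1 and Cd74 sit near 0.

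Markers of antigen-presenting cells and of lymphoid tissue varied across the same libraries. The summed level of the 4 genes H2-Aa, H2-Ab1, H2-Eb1 and Cd74 was 52.1, 70.9, 136 and 105 CPM in Bach2KO mice 1 to 4 and 76.2, 44.0, 26.6 and 17.8 CPM in Bach2WT mice. The 13 macrophage markers, all tested, summed to 25.2, 33.6, 39.6 and 32.6 CPM in Bach2KO and 33.3, 32.5, 22.1 and 17.8 CPM in Bach2WT, with the males of the genotypes apart in the same direction as for class II. Of these, Lyz2 (log2 fold change 1.15, SE 0.35) and C1qb (0.95, SE 0.31) were higher at an unadjusted p under 0.05, C1qa (-0.64, SE 0.30) and C1qc (0.58, SE 0.29) did not pass, and the list's median was 0.58, with a median sex by genotype term of 0.46. That term was 1.57 for C1qa, 1.35 for C1qb and 0.94 for Csf1r (unadjusted p = 0.00299, 0.0211 and 0.0327 by edgeR). It was negative for Fcgr1 (-0.42) and Mertk (-0.90). By fold, 9 of the 13 were higher and 4 lower, and none passed the adjusted threshold of edgeR. The defining markers Csf1r and Adgre1 had counts in every library. Their log2 fold changes were 0.36 (SE 0.22) for Csf1r and -0.27 (SE 0.39) for Adgre1.

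Of the 11 dendritic cell markers, 3 were tested, and the list summed to 2.22, 1.69, 2.71 and 2.46 CPM in Bach2KO and 1.65, 1.33, 1.12 and 0.864 CPM in Bach2WT. As for class II, the Bach2KO males were highest and the Bach2WT males lowest. The females did not overlap either, but Bach2KO mouse 2 and Bach2WT mouse 1 were nearly level. Clec10a had 60, 31, 61 and 119 counts in Bach2KO and 38, 25, 0 and 0 in Bach2WT, while Zbtb46, a defining factor of classical dendritic cells, had 56 to 200 counts and Xcr1 0 to 3. Flt3, also a defining marker, had 4, 4, 0 and 14 counts in Bach2KO and 14, 2, 0 and 0 in Bach2WT. Zbtb46 made the largest part of the list's sum, with means of 0.993 CPM in Bach2KO and 0.724 CPM in Bach2WT. The log2 fold changes of the 3 tested genes were 1.82 for Clec10a, 0.45 for Zbtb46 and 0.84 for Itgax, none with an unadjusted p under 0.05. Their median of 0.84 ranged from -0.06 without Bach2KO mouse 1 to 2.37 without Bach2WT mouse 1, both with DESeq2. The median sex by genotype term of the 3 genes was 3.16, which is that of Itgax (unadjusted p = 0.0913 by edgeR), and the term of Clec10a had an unadjusted p of 0.000261 by edgeR. The part of macrophages and dendritic cells in the class II values was not tested.

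B cell markers followed the order of the class II genes in Bach2WT and not in Bach2KO. The list of 11, of which 4 were tested, summed to 2.29, 0.169, 0.0264 and 0.819 CPM in Bach2KO and to 6.73, 2.26, 0.627 and 0.360 CPM in Bach2WT. Among the Bach2WT mice the order was that of the class II sums, whereas in Bach2KO the highest B cell sum was in mouse 1, which had the lowest class II sum. Bach2KO mouse 3, which had the highest class II levels and the fewest counts of all libraries, had 0 counts of Cd79a and Ms4a1. Ms4a1 also had 0 counts in Bach2KO mouse 2 and in both Bach2WT males. Bach2KO mouse 4, with the next highest class II sum, had a B cell sum above those of both Bach2WT males. The 4 tested B cell genes had log2 fold changes of -3.04 (Fcer2a), -1.68 (Cd22), -1.22 (Cd79a) and -0.71 (Cd79b), none with an unadjusted p under 0.05, and their median of -1.45 ranged from -3.66 without Bach2KO mouse 1 to -0.11 without Bach2WT mouse 1, both with DESeq2. Their median sex by genotype term was 1.30. That of Cd22, with 32, 8, 0 and 24 counts in Bach2KO and 113, 18, 0 and 0 in Bach2WT, had an unadjusted p of 0.0167 by edgeR, and that of Fcer2a was negative (-3.08).

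T cell markers were apart in males in the same direction as class II. The list summed to 2.79, 0.833, 1.85 and 1.61 CPM in Bach2KO and 2.29, 0.846, 0.251 and 0.245 CPM in Bach2WT. The females of the groups overlapped, while both Bach2KO males lay above both Bach2WT males. Of its 11 genes 5 were tested, with a median log2 fold change of 0.80, and Cd3e (1.51), Lck (0.80), Cd4 (0.91) and Cd2 (0.65) were the 4 with the smallest p, none under 0.05 unadjusted. That median ranged from 0.24 without Bach2KO mouse 1 (edgeR) to 1.98 without Bach2WT mouse 1 (DESeq2). The median sex by genotype term of the 5 genes was 2.73, and that of Cd2, with 36, 12, 16 and 63 counts in Bach2KO and 37, 20, 2 and 0 in Bach2WT, had an unadjusted p of 0.0110 by edgeR. The part of T cells and B cells in the class II values was not tested.

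Genes of lymph node stroma and homing had their highest sums in 2 libraries, called lymph node rich below. Their sum was 12.0 CPM in Bach2KO mouse 1 and 5.15 CPM in Bach2WT mouse 1, against 0.518 to 2.15 CPM in the other libraries, and Glycam1, a ligand of high endothelial venules, had 725 counts in Bach2KO mouse 1 and at most 6 elsewhere. Only Bach2KO mouse 1 stood far from its group in this sum by the measure given below. Bach2WT mouse 1 had 277 counts of Cxcl13 and 2 of Glycam1. Of the list's 4 tested genes, Ccl21a was higher in Bach2KO at an unadjusted p under 0.05 (log2 fold change 2.13, SE 0.64), and Cxcl13 (-1.24) and Ltb (0.29) did not pass. Bach2KO mouse 1 also had the lowest class II sum of its group (52.1 CPM) and Bach2WT mouse 1 the highest (76.2 CPM). Leaving both out, a choice made after seeing the data, therefore had to raise the class II fold changes. Without both libraries the fold changes of the 4 genes H2-Aa, H2-Ab1, H2-Eb1 and Cd74 were larger. H2-Ab1 then had a log2 fold change of 1.88 (edgeR adjusted p = 0.0486), and Cd74 one of 1.65 (edgeR adjusted p = 0.125). The sex by genotype term of Cd74 was then 1.68, from a fit with 1 female left per genotype.

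**Figure D4:**
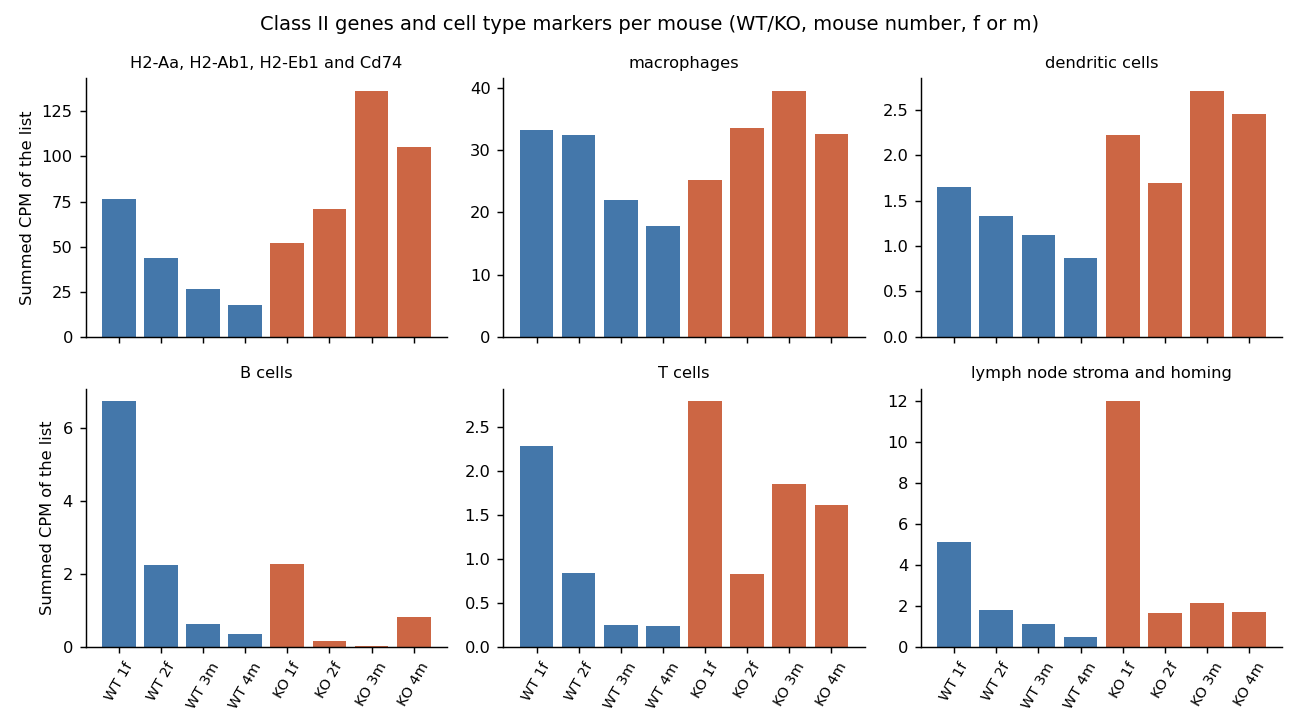
Summed CPM (y axes, from 0) of H2-Aa, H2-Ab1, H2-Eb1 and Cd74 and of 5 marker lists in each mouse (x axis: genotype, mouse number, f for female and m for male; blue, Bach2WT; orange, Bach2KO). The class II sum is highest in Bach2KO males (136 and 105 CPM), where the B cell sum is 0.0264 and 0.819 CPM, against 0.627 and 0.360 CPM in Bach2WT males. The dendritic and T cell sums are also higher in Bach2KO than in Bach2WT males, and in Bach2WT the B cell sums have the order of the class II sums.

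The other genes of the pathway were taken from lists of related genes. Of the other class II genes and regulators, 9 of 12 in the table were tested, with a median log2 fold change of 0.07. At an unadjusted p under 0.05 Rfx5, a subunit of the factor that binds the X box, was higher (1.67, SE 0.66) and H2-Ob, the beta chain of a dimer that restrains H2-DM and is found mainly in B cells, was lower (-2.94, SE 1.32). H2-Ob had 2, 0, 0 and 16 counts in Bach2KO and 45, 18, 32 and 0 in Bach2WT. Creb1 (0.58) and Nfya (-0.49) did not pass, and none of the 9 passed the adjusted threshold of edgeR.

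Among 12 endolysosomal proteases, inhibitors and membrane proteins, all tested, only Lgmn, the protease legumain, was higher at an unadjusted p under 0.05 (log2 fold change 0.80, SE 0.34), and the median was -0.05. Ctsk (2.34, SE 1.11), Cd63 (-0.29) and Cst3 (-0.28) did not pass. Of 3 tested costimulatory ligands, Icosl (1.01), Cd40 (1.10) and Cd86 (0.11), none passed, while Cd80, Tnfsf9, Cd274 and Pdcd1lg2 were under the filter.

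In the interferon-gamma axis, which induces Ciita, 7 of 8 genes in the table were tested and the median log2 fold change was 0.66. It ranged from 0.06 without Bach2WT mouse 4 (DESeq2) to 0.95 without Bach2WT mouse 1 (edgeR), and was -0.03 over genes with at least 10 counts in every library. The transcription factor Irf1 was higher in every Bach2KO mouse than in any Bach2WT mouse, at 1.55 ± 0.609 against 0.774 ± 0.175 CPM (SD, n = 4), with a log2 fold change of 1.00 (edgeR adjusted p = 0.552). Its unadjusted p was under 0.05, while Irf8 (1.34) and the receptor gene Ifngr1 (0.66) did not pass. Ifng itself was not analysed here.

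Of the 10 members, 6 lie within 197 kb of chromosome 17 (34338515 to 34535648, GRCm39), among 15 genes in all. Of the 9 others, 7 were tested and had a median log2 fold change of 0.77. At an unadjusted p under 0.05, 4 were higher, namely Tap1 (1.34, SE 0.29) and Tap2 (0.77, SE 0.28), which form the peptide transporter of class I presentation, and Psmb9 (1.19, SE 0.36) and Psmb8 (1.18, SE 0.46), subunits of the immunoproteasome. H2-Ob was lower, and Brd2 and the non-coding Gm15821 (-0.02, SE 0.64) did not pass. The median sex by genotype term was 1.06 for these neighbours and 2.59 for the 6 class II genes.

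**Figure D5:**
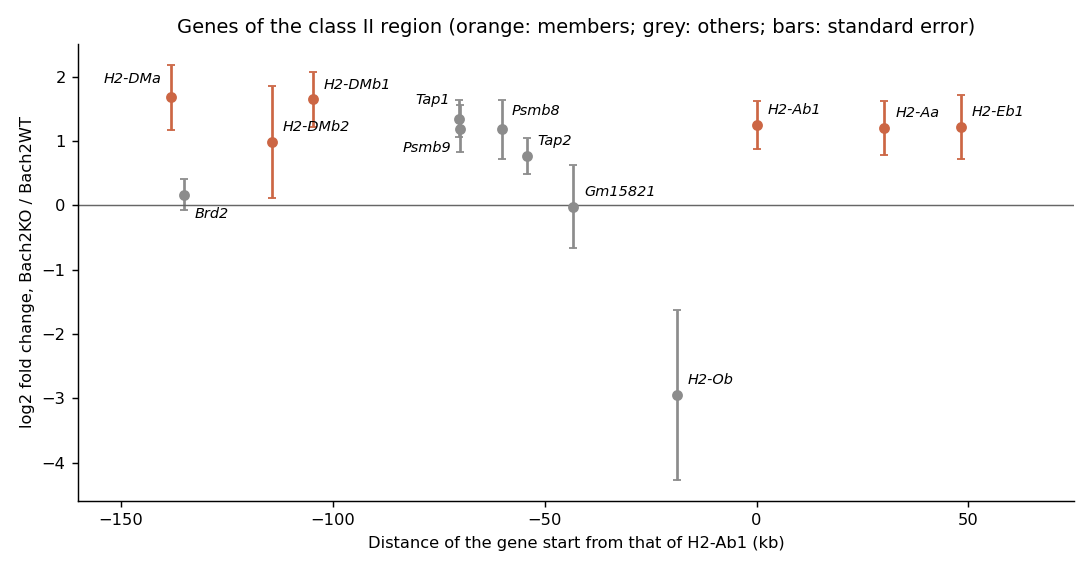
Log2 fold change, Bach2KO over Bach2WT (y axis, with standard errors), of the tested genes of the class II region against the distance of the gene start from that of H2-Ab1 in kb (x axis; orange, members; grey, other genes). The members and Tap1, Psmb9, Psmb8 and Tap2 lie above 0, Brd2 and Gm15821 near 0, and H2-Ob below.

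Over the 8 libraries, the mean log2 CPM of H2-Aa, H2-Ab1, H2-Eb1 and Cd74 was compared with every tested gene by Pearson's r, as a description of libraries in which sex, genotype and depth vary for all genes at once. H2-DMa, which is not in that mean, had r = 0.968, rank 6 of the 12820 tested genes. For the other members r was 0.858 for H2-DMb1 (rank 149), 0.839 for H2-DMb2 (209) and 0.732 for Ctss (601). It was 0.630 for Ciita (rank 1157) and -0.362 for Ifi30 (10179), so many other genes had a higher r than these members. The most similar genes outside the members included Myo1c (0.983), Mief2 (0.967), Fcer1g (0.956), Bambi-ps1 (0.956), Csf1r (0.952), Gm6969 (0.952), Naa20 (0.951), St3gal2 (0.949) and Mrtfa (0.948). Of these, Fcer1g, the signalling chain of Fc receptors, and Csf1r, the receptor for macrophage colony-stimulating factor, are known from myeloid cells. Myo1c ranged only from 7.31 to 10.4 CPM over all libraries, so a high r did not mean a large change.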

How the data were processed

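Poly-A RNA of whole pancreatic tissue was sequenced in paired ends. Per the submitters' processing notes, fastp, HISAT2 2.2.1, featureCounts 2.0.6 and the mouse build mm39 were used. The authors deposited 1 table with raw read counts, counts scaled by size factors (a signal not used for tests) and FPKM per gene and library. The deposited FPKM rested on 1 scaling constant for all libraries and were used for levels between genes. Even numbers made up 65.3% of counts from 10 to 100, and whether both ends of a pair were counted separately was not tested.

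Counts were tested with edgeR 4.0.16 (TMM, filterByExpr, quasi-likelihood test, genotype alone) on all 12820 genes that passed, with Benjamini-Hochberg adjustment and a threshold of 0.05. The common biological coefficient of variation was 0.438. The sex by genotype term was fitted in the same way. DESeq2 1.42.0 was an alternative. Log2 CPM used a prior count of 2. Exact permutation tests used scipy 1.17.1. P-values of the genotype comparison measure the spread between 4 mice per genotype, and fewer where libraries were left out. Those of the sex by genotype term rest on 2 mice per sex and genotype. In edgeR and DESeq2 the spread of a gene is partly estimated from other genes. The edgeR script was tested on simulated data.

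The members, gene lists and marker lists were chosen with earlier results of these data known. Named besides the members are up to 4 genes of each list with the smallest p, defining markers at or near 0, the genes of the class II region and the 10 genes most similar in pattern. Genes that these rules name but that are missing from the text are not reported here. The authors' own fold changes and p-values in the table were not used. Alternatives were RLE factors, other count filters, library sizes without digestive enzymes, sex as a covariate, the mouse number as a block, and leaving out libraries. Leaving out libraries in DESeq2, in the sex by genotype term or in pairs, and other filters of that term, were chosen after seeing the data.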

Additional observations from a re-analysis of the deposited data

Results flagged for a closer look

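The genotype effect differed between the sexes for 4 members by the DESeq2 sex by genotype term (adjusted p under 0.05). The term, the log2 fold change in males minus that in females, was 2.50 for H2-Aa, 2.29 for H2-Ab1, 2.83 for H2-Eb1 and 2.28 for Cd74. In males the mean level of H2-Aa was 22.0 CPM in Bach2KO and 3.93 CPM in Bach2WT, and in females it was 9.89 and 9.94 CPM. H2-Ab1 stood at 27.1 and 4.95 CPM in males and 14.0 and 12.3 CPM in females, and H2-Eb1 at 24.3 and 3.78 CPM in males and 9.92 and 11.0 CPM in females. Each of these means rests on 2 mice, and edgeR called none of the 4 terms. In each female mean, 1 of the 2 mice was rich in lymph node genes. Single libraries were compared with the rest of their group in 67 groups of 4 values, 20 of them CPM of members, 17 log2 ratios between members and 30 summed CPM of gene lists. No library stood far from its group in the members or the ratios, and 2 did in the list sums. The lymph node sum of Bach2KO mouse 1, at 12.0 CPM against 1.67 to 2.15 CPM in the other Bach2KO mice, lay from its nearest neighbour by 0.953 of the group's range. The islet sum of Bach2WT mouse 4, at 2317 CPM against 184 to 514 CPM in the other Bach2WT mice, did so by 0.845 of the range. Chance alone marks about 1 in 20 such groups.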

How the results depend on the processing

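The direction of the genotype difference held for 10 of 10 members under every alternative run over both sexes, and in females alone H2-Eb1 turned to -0.0748. The number of members past an adjusted p of 0.05 was 0 with edgeR, 2 with DESeq2 (Ctss and H2-DMb1), 2 with edgeR and no filter on low counts (Ctss and H2-Ab1), and 0 with the mouse number as a replicate block. Without both lymph node rich libraries it was 1 with edgeR (9 of all genes) and 4 with DESeq2 (H2-Aa, H2-Ab1, H2-Eb1 and Cd74), where 10.7% of the 1461 genes adjusted were called and Ctss and H2-DMb1 received no adjusted p. Those libraries had the lowest class II sum of Bach2KO and the highest of Bach2WT, so larger class II fold changes without them were fixed in advance. Leaving out single libraries gave 0 to 6 members, with 0 in every edgeR fit. The 6 were called by DESeq2 without Bach2WT mouse 1, where 1.35% of genes were, and Cd74 then had a log2 fold change of 1.49 (adjusted p = 0.00145). Members higher at an unadjusted p under 0.05 numbered 7, and 3 to 8 without single libraries. For the sex by genotype term the number was 0 with edgeR, 5 with edgeR and no filter (0.429% of all genes), 4 with DESeq2 (0.216%) and 4 with DESeq2 without independent filtering (0.084%). Calls of this term that were lost without single libraries are named above. Those fits left 1 mouse in a combination of sex and genotype, so their counts are not given. Members with an unadjusted p under 0.05 for that term were 5 with edgeR. The cause of these changes was not tested. Log2 ratio differences near 0 changed sign when single libraries were left out, and ranged from -0.22 to 0.13 for H2-Aa to H2-Ab1, -0.28 to 0.35 for H2-Eb1 to H2-Ab1, -0.40 to 0.14 for H2-DMb1 to H2-DMa, -1.14 to 0.46 for H2-DMb2 to H2-DMb1 (0.40 with 1 count added to both genes) and -0.39 to 0.63 for Ciita to H2-Ab1. That of Ifi30 to Cd74 stayed between -2.13 and -1.41. Over all genes edgeR called 1, against 75 with DESeq2, 73 without a filter, 0 with sex or the block in the fit or with at least 10 counts in every library, and 0 to 207 when single libraries were left out. Genes at an unadjusted p under 0.05 numbered 957, and 690 to 1809 over the alternatives. The deviations of mice with the same number correlated at 0.212, -0.034, -0.041 and -0.054. The first value, of the lymph node rich mice 1, was above that of every pair with unlike numbers. These few values cannot settle whether the number pairs the mice. The block, with log2 fold changes of 1.21 for Cd74 and 1.85 for Ctss, changed no call of a member. Depth limits Ciita and H2-DMb2, which had 0 to 80 counts per library, and 2 mice per sex and genotype limit every statement on sex.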

Other observations

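Markers of other pancreatic cells were read in the same libraries. The 7 islet markers summed to 227 to 2021 CPM in Bach2KO and 184 to 2317 CPM in Bach2WT, with the highest values in Bach2KO mouse 3 and Bach2WT mouse 4, the libraries with the highest and the lowest class II sum, so the islet sum and the class II sum did not share an order. Their median log2 fold change was 0.30, from -0.25 without Bach2KO mouse 3 (DESeq2) to 1.21 without Bach2WT mouse 4 (edgeR). The medians were -0.27 for 31 digestive enzyme genes (10 lower and 1 higher at an unadjusted p under 0.05), -0.20 for 8 acinar genes, 0.05 for 6 duct genes and -0.69 for 4 adipocyte genes (from -4.95 without Bach2KO mouse 1 by DESeq2 to 0.24 without Bach2WT mouse 2 by edgeR), and no gene of these lists passed the adjusted threshold in edgeR. Cpa1, the digestive carboxypeptidase, was the acinar gene with the smallest p, at 55606 ± 2956 CPM in Bach2KO and 80433 ± 10170 CPM in Bach2WT (SD, n = 4).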
